A study of Mus musculus with 8 samples.

Results

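Genes of transforming growth factor beta (TGF-beta) and bone morphogenetic protein (BMP) signalling were examined in single sorted cells of the embryonic mouse cortex. The set was a list of 41 genes by symbol, with 12 ligands, 10 receptors, 8 Smads, 7 secreted or membrane antagonists and 4 Id genes. All 41 were found among the 27998 genes of the count matrix, and Bmp6 alone had no count in either group of neurons. Each gene was described in 470 Reln-high barcodes, which held at least 5 counts of Reln per 10000, in 3 grades of Rspo3 within these barcodes, and in 2444 other neurons.

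The cells were Ebf2-EGFP+ cells purified by fluorescence-activated cell sorting from the cerebral cortex of E15.5 Tg(Ebf2-EGFP)FB58Gsat embryos, in which a transgene reports activity of the Ebf2 locus. RNA was counted with the 10x Genomics Chromium single cell protocol, so each count is a unique molecular identifier (UMI). The 8 labelled samples were untreated samples of 1 kind, embryos were pooled, and the samples shared 1 matrix in which no barcode could be traced to a sample. The data were therefore treated as 1 library with no replicate check, no test was run, and every interval below is an exact 95% interval for counting error alone.

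There were 3000 barcodes, as many as the study processed cells, with 10718 to 76690 UMIs each (median 15832). After removal of 69 likely doublets, 2931 barcodes remained, of which 16.0% were Reln-high. Reln encodes reelin, the secreted glycoprotein of Cajal-Retzius (CR) neurons in cortical layer 1. The 6 CR markers Trp73, Lhx5, Ndnf, Nhlh2, Ebf3 and Lhx1 summed to 1541 counts per 1000000 UMIs (CPM) in Reln-high barcodes and 68.1 CPM in the other neurons, and 399 Reln-high barcodes lay in the single cluster that carried these markers. The threshold split few barcodes, with 16 at 4 to under 5 and 6 at 5 to 6 Reln UMIs per 10000. Reln-high barcodes were deeper than the others (median 21447.5 against 15276.5 UMIs), and 39.8% of them against 9.90% of the other neurons exceeded 25000 UMIs. Barcodes with both Xist and Y-linked RNA, which can hold more than 1 embryo's cell, made up 13.0% against 3.03%. The part of doublets and depth in the results was not tested, and values without these barcodes are given where they end a call.

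In this pathway a secreted dimer of the TGF-beta, activin or BMP group brings type I and type II serine/threonine kinase receptors together. The type I receptor then phosphorylates receptor-regulated Smads, Smad1, Smad5 and Smad9 for most BMPs and Smad2 and Smad3 for TGF-beta and activins, which enter the nucleus with Smad4. Id genes are classic targets of the BMP branch and encode helix-loop-helix proteins that lack a basic DNA-binding region and sequester proneural bHLH partners. In the developing forebrain BMPs are best known as signals of the dorsal midline and cortical hem, a region that also gives rise to CR neurons.

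Promoter sequence is shown for Bmp5, Smad1 and Id4, which were higher in Reln-high barcodes, and for Id2, which was lower, because these members carry the main differences below. RefSeq windows on GRCm38.p6, from 250 bases before to 50 after a transcription start, were at hand for 30 of the 41 members (36 windows). They were searched for the Smad-binding palindrome GTCTAGAC, the BMP-type Smad element GGCGCC and the E-box CANNTG, each its own reverse complement and therefore read on both strands at once. Each line gives the longest run before the start that lies outside exons of protein-coding genes, with GGCGCC in capitals. The run of Id2 lies inside the annotated Id2 gene, ahead of an internal start, and the others lie outside their genes. The runs are chr9:75775115-75775363 on the plus strand for Bmp5, chr8:79399519-79399678 on the minus strand for Smad1, chr13:48260866-48261115 on the plus strand for Id4 and chr12:25096254-25096342 on the minus strand for Id2. All 41 members are annotated as protein-coding genes in GENCODE M21, where Bmp5 spans chr9:75775364-75900310, Smad1 chr8:79338395-79399518, Id4 chr13:48261228-48266026 and Id2 chr12:25093799-25097140.
Bmp5: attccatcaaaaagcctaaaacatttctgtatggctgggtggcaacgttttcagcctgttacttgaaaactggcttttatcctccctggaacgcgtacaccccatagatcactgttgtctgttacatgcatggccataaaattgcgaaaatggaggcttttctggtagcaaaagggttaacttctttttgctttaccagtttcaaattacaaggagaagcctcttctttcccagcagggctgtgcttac
Smad1: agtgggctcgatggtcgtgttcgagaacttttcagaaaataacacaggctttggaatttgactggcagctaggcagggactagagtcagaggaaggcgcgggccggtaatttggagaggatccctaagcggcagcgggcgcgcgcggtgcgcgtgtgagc
Id4: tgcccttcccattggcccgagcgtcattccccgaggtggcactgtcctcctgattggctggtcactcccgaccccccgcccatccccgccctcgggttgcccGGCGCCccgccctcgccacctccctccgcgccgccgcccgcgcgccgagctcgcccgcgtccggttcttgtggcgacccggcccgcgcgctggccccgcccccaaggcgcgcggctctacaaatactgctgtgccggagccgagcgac
Id2: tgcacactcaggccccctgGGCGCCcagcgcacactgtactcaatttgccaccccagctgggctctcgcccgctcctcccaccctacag

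GGCGCC was found in 10 of the 36 member windows (27.8%, in 9 genes), against 11.9% of all 32851 windows. The match began 148 bases before the start of Id4 and 231 bases before the internal start of Id2, and the full windows of Bmp5 and Smad1 held none, so members on either side of the comparison carried it. GTCTAGAC was found in the window of Smad6 among the members, against 0.213% of all windows. An E-box was present in 52.8% of member windows and 72.3% of all windows. The median GC content was 65.7% in member windows and 52.7% in all, and its part in these shares was not tested.

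Bmp5 and Smad1 were higher and Tgfb2 and Id2 lower in Reln-high barcodes than in the other neurons as 1 group, while none of the receptors and no other Smad past 5 CPM differed by 2-fold. Of the 41 members, 22 had a mean level over both groups of at least 5 CPM, 18 were below it and 1 had no UMI. Among the 22, 5 were at least 2-fold higher in Reln-high barcodes (Bmp5, Smad1, Chrd, Fstl5 and Id4) and 3 at least 2-fold lower (Tgfb2, Nog and Id2). Bmp5, Tgfb2 and Nog were below 5 CPM in the group where they were lower. They passed the minimum only through the group where they were high, so their calls follow in part from it. Among all 9612 genes past the same level, 7.0% were at least 2-fold higher and 4.33% at least 2-fold lower. The median log2 ratio was 0.07 over the 22 members and 0.12 over all genes, and the middle 50% of the members ran from -0.54 to 0.60 against -0.13 to 0.39 for all genes.

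**Figure D1:**
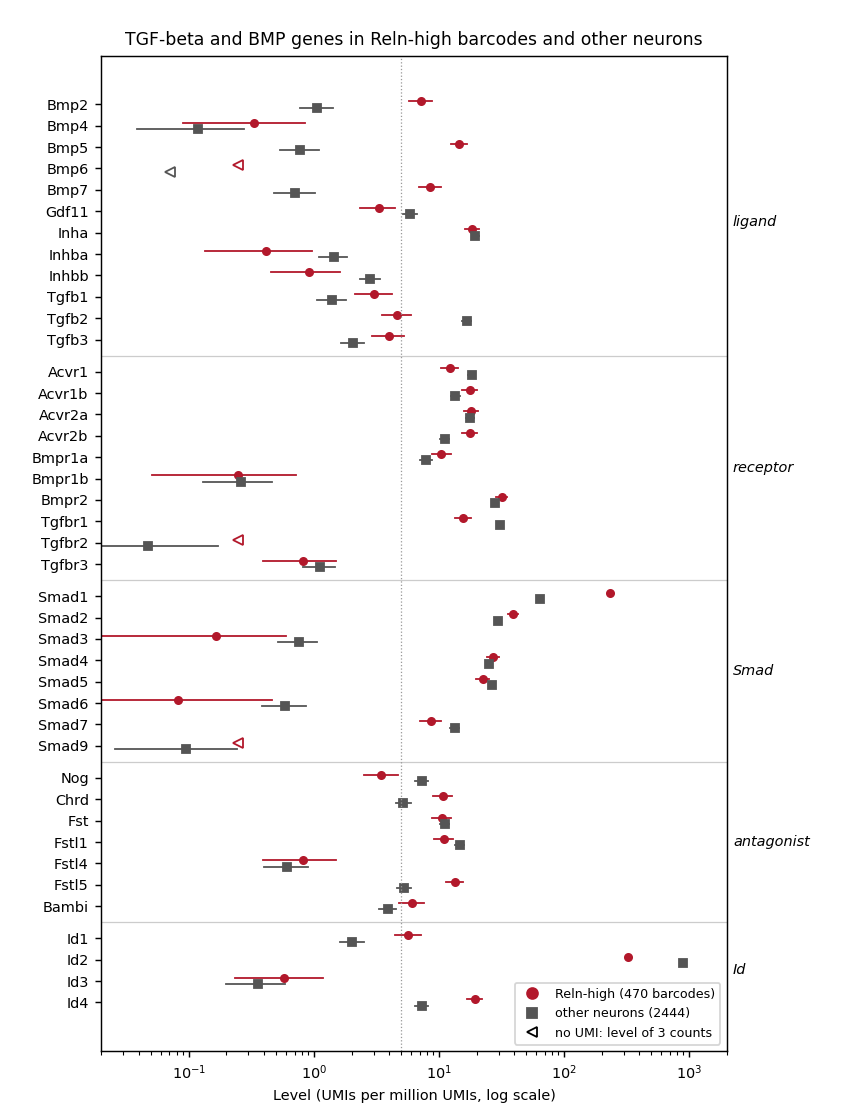
Level of each of the 41 members in 470 Reln-high barcodes (red circles) and 2444 other neurons (grey squares), in CPM on a log axis and grouped by role, with bars for exact 95% counting intervals, open triangles at the level of 3 counts for a gene without a UMI and a dotted line at 5 CPM. Bmp5 (14.5 against 0.781) and Smad1 (231.5 against 64.0) lie well to the right in Reln-high barcodes, Id2 (323.2 against 902.3) and Tgfb2 (4.62 against 16.6) well to the left.

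Bmp5, Bmp7 and Bmp2 had most of their RNA in Reln-high barcodes. Bmp5, a ligand of the BMP5/6/7 subgroup, was at 14.5 CPM (176 UMIs) in Reln-high barcodes and 0.781 CPM (33 UMIs) in the other neurons, 18.6-fold higher with an interval of 12.8 to 27.8. Bmp7, of the same subgroup, was at 8.49 CPM (103 UMIs) against 0.710 CPM (30 UMIs), 12.0-fold higher (7.90 to 18.6). Bmp2, of the BMP2/4 subgroup and a known hem and midline signal, was at 7.17 CPM (87 UMIs) against 1.06 CPM (45 UMIs), 6.74-fold higher (4.65 to 9.88). The mean levels of Bmp7 and Bmp2 were below 5 CPM, so neither entered the count of called members, and both would enter it with no minimum level. The level of Bmp5 in the other neurons was 5.38% of that in Reln-high barcodes, above the 1.91% to 5.0% found for the 6 CR markers. That of Bmp7 was 8.36% and that of Bmp2 14.8%. Whether these levels are expression in the other neurons was not tested.

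Detection per barcode gave the same picture at equal depth. With each barcode thinned to 12000 UMIs, which left out 24 Reln-high barcodes and 303 other neurons that were shallower, a Bmp5 UMI was found in 17.3% of Reln-high barcodes (13.9% to 21.1%) and 0.887% of other neurons (0.535% to 1.38%). Without thinning the shares were 27.0% and 1.35%. For Bmp7 the thinned shares were 9.42% and 0.747% (17.7% and 0.941% unthinned), and for Bmp2 they were 8.97% and 1.03% (11.7% and 1.39% unthinned). At least 1 of the 3 ligands was found in 31.6% of Reln-high barcodes (27.3% to 36.2%) and 2.62% of other neurons (1.98% to 3.38%). Most of these barcodes held a single ligand, since 123 Reln-high barcodes had 1, 18 had 2 and 0 had all 3. A Bmp7 UMI was seen in 14.3% of the 77 Reln-high barcodes with Bmp5 and in 8.40% of the 369 without it, and the intervals of these shares overlapped.

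The TGF-beta ligands did not share a direction. Tgfb2 was at 4.62 CPM (56 UMIs) in Reln-high barcodes and 16.6 CPM (703 UMIs) in the other neurons, a log2 ratio of -1.85 (-2.27 to -1.46). Tgfb1 was at 3.05 against 1.40 CPM, 2.19-fold higher but too low to be called. Tgfb3 was at 3.96 against 2.06 CPM, also below the minimum and, at 1.92-fold, short of 2-fold. Among the activin and inhibin subunits, Inha, the alpha subunit that turns an activin dimer into an inhibin, was at 18.4 against 19.6 CPM. The beta subunits Inhba and Inhbb, which form activins, were at 0.412 against 1.44 and 0.907 against 2.82 CPM. Gdf11, a ligand that signals through Smad2 and Smad3, was at 3.30 against 5.84 CPM. Bmp4 had 4 UMIs in Reln-high barcodes and 5 in the other neurons, and Bmp6 had none, a count that allows up to 0.247 CPM in Reln-high barcodes when the limit is set at 3 counts.

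Of the 10 receptors 7 passed 5 CPM and none was called, although the 7 did not share 1 direction. The type II BMP receptor Bmpr2 was at 31.9 CPM in Reln-high barcodes and 28.2 CPM in the other neurons, a log2 ratio of 0.18 (0.01 to 0.34), and the type I BMP receptor Bmpr1a at 10.5 against 7.92 CPM. The activin type II receptors Acvr2a and Acvr2b, which also bind BMPs, were at 18.1 against 17.8 and 17.6 against 11.1 CPM, and the activin type I receptor Acvr1b at 17.6 against 13.5 CPM. Acvr1, a type I receptor for BMPs of the Bmp5 to Bmp7 subgroup, was lower at 12.2 against 18.2 CPM, a log2 ratio of -0.58 (-0.84 to -0.32). The TGF-beta type I receptor Tgfbr1 was lower at 15.6 against 30.6 CPM, a log2 ratio of -0.97 (-1.20 to -0.75), just short of 2-fold, and passed 2-fold at -1.44 without barcodes above 25000 UMIs and at -1.31 within the CR-like cluster. Its type II partner Tgfbr2, which TGF-beta ligands require, had 0 and 2 UMIs. Bmpr1b had 3 and 11 UMIs, and the co-receptor Tgfbr3 had 10 and 47.

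Smad1 was the member with the most UMIs among those higher in Reln-high barcodes. This receptor-regulated Smad of the BMP branch was at 231.5 CPM (2808 UMIs) against 64.0 CPM (2706 UMIs), 3.62-fold higher (3.43 to 3.81). At 12000 UMIs a Smad1 UMI was found in 88.3% of Reln-high barcodes (85.0% to 91.2%) and 52.7% of the other neurons (50.6% to 54.9%), with a median of 2 against 1 (94.7% and 63.0% unthinned). In the 6 clusters of other neurons its level ran from 52.7 to 78.6 CPM, so it was present in every one of them and below Reln-high barcodes in each. The remaining Smads did not follow. Smad5, which serves the same receptors, was at 22.3 against 26.7 CPM, the shared partner Smad4 at 27.2 against 25.1 CPM, and Smad2 of the TGF-beta branch at 39.3 against 29.5 CPM. The inhibitory Smad7 was at 8.57 against 13.4 CPM. Smad3 had 2 and 32 UMIs, the inhibitory Smad6 had 1 and 25, and Smad9 had 0 and 4.

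**Figure D2:**
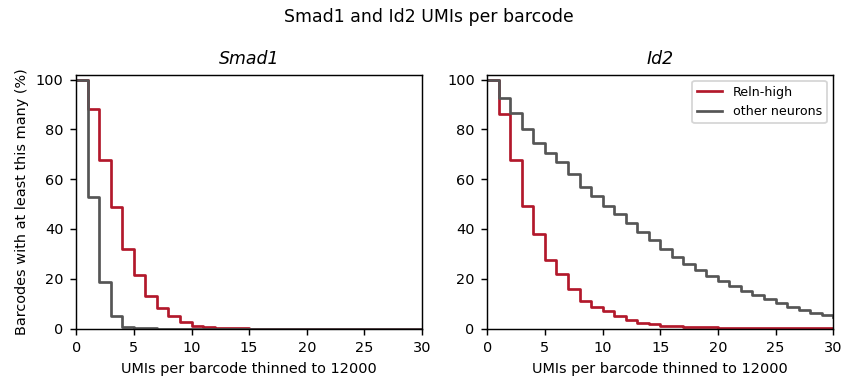
Share of barcodes (vertical axis, percent) with at least a given number of Smad1 or Id2 UMIs (horizontal axis) after thinning to 12000 UMIs, for 446 Reln-high barcodes (red) and 2141 other neurons (grey). The Smad1 line of Reln-high barcodes lies to the right (median 2 against 1 UMI), and the Id2 line to the left (median 2 against 9).

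Of the 7 antagonists, Chrd and Fstl5 were higher in Reln-high barcodes and Nog was lower. Chrd encodes chordin, which binds BMPs outside the cell, and was at 10.7 CPM (130 UMIs) against 5.20 CPM (220 UMIs), a log2 ratio of 1.04 (0.72 to 1.36). The ratio was 0.80 without barcodes above 25000 UMIs, which ended the call. Fstl5, a follistatin-like gene, was at 13.4 CPM (163 UMIs) against 5.25 CPM (222 UMIs), 2.56-fold higher (2.08 to 3.15). Nog encodes noggin, another extracellular BMP antagonist, and was at 3.46 CPM (42 UMIs) against 7.29 CPM (308 UMIs), a log2 ratio of -1.07 (-1.57 to -0.61) that was -0.85 at 12000 UMIs. Fst, which encodes the activin-binding follistatin, was at 10.6 against 11.1 CPM, Fstl1 at 11.0 against 14.7 CPM, and the pseudoreceptor Bambi at 6.10 against 3.88 CPM. Fstl4 had 10 and 26 UMIs.

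The Id genes divided. Id2 was at 323.2 CPM (3921 UMIs) in Reln-high barcodes and 902.3 CPM (38142 UMIs) in the other neurons, a log2 ratio of -1.48 (-1.53 to -1.43). Nearly as many barcodes held it, 86.3% (82.8% to 89.4%) against 92.6% (91.4% to 93.7%) at 12000 UMIs (94.0% and 95.1% unthinned), but the median count was 2 against 9. Id4 went the other way, at 19.3 CPM (234 UMIs) against 7.29 CPM (308 UMIs), 2.65-fold higher (2.22 to 3.15), and was found in 18.4% (14.9% to 22.3%) against 7.10% (6.05% to 8.27%) of barcodes at 12000 UMIs (32.8% and 9.12% unthinned). Id1 was at 5.69 against 2.03 CPM, with a mean below 5 CPM, and Id3 had 7 and 15 UMIs. Id1, Id3 and Id4 are also expressed by neural progenitors. The 8 radial glia markers summed to 225.5 CPM in Reln-high barcodes and 184.8 CPM in the other neurons. Vim made up 153.4 and 121.0 CPM of this, Pax6 45.3 and 3.26 CPM and Hes5 1.48 and 0.662 CPM. The others were lower or about even in Reln-high barcodes. Fabp7 was at 16.9 and 44.0 CPM, Slc1a3 at 5.11 and 10.7 CPM and Nes at 2.64 and 3.67 CPM. Hes1 was at 0.165 and 0.899 CPM and Sox2 at 0.495 and 0.544 CPM. The 6 cycling markers summed to 7.75 and 4.57 CPM. The deep-layer markers Fezf2, Bcl11b and Sox5, lower like Id2, were at 93.6, 168.1 and 64.1 CPM in Reln-high barcodes. In the other neurons they were at 367.5, 492.2 and 259.9 CPM. Tle4 and Foxp2 were also lower, and Tbr1 was higher at 415.5 against 261.0 CPM. The part of progenitors, or of RNA from other neurons, in the Id levels was not tested.

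Markers of meningeal, choroid plexus or hem, vascular and microglial cells were low but not equal between the groups. The 7 meningeal fibroblast markers summed to 23.8 CPM in Reln-high barcodes and 6.95 CPM in the other neurons. Crabp2 gave 19.9 and 5.58 CPM of this sum and Col1a1 gave 3.38 and 0.189 CPM. Col1a2 was at 0 and 0.0473 CPM and Col3a1 had no UMI in either group, so these collagens do not separate the groups. Dcn was at 0.247 and 0.994 CPM, Lum at 0.247 and 0.0710 CPM and Foxc1 at 0.0824 and 0.0710 CPM. The 6 choroid plexus or hem markers summed to 11.7 and 2.60 CPM with Ttr at 0 in Reln-high barcodes, the 6 endothelial markers to 4.62 and 2.34 CPM, and the 6 pericyte markers to 2.72 and 0.379 CPM. The 7 microglial markers summed to 6.35 and 9.91 CPM, with C1qa, C1qb and Csf1r at 0 in Reln-high barcodes. Meninges and choroid plexus are known sources of BMPs, and the part of their RNA in the BMP ligand levels was not tested.

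To see where the other neurons placed the pathway, Reln-high barcodes were set beside 6 clusters of other neurons, built without the members or any gene of the wider pathway list. They are called by their leading gene and, where the markers allowed, by a cell type: Fezf2-led and Akap7-led deep-layer-like, Rnd2-led upper-layer-like, Caln1-led subplate-like, Neurod1-led and Pbx3-led. At least 5 CPM in at least 1 of the 7 groups was reached by 31 members. For 11 of the 31 the interval of the highest group lay apart from that of the next: Bmp2, Bmp5, Bmp7 and Smad1 in Reln-high barcodes, Tgfb1, Tgfb2, Fstl5 and Id4 in Pbx3-led neurons, Tgfb3 and Nog in subplate-like neurons, and Inhba in upper-layer-like neurons. The same held for 22.6% of the 10706 genes that reached 5 CPM in a group, among them genes used to build the clusters. Bmp2, Bmp5, Bmp7, Tgfb1, Tgfb3 and Inhba reached 5 CPM in their highest group alone, so their separation follows in part from this minimum.

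**Figure D3:**
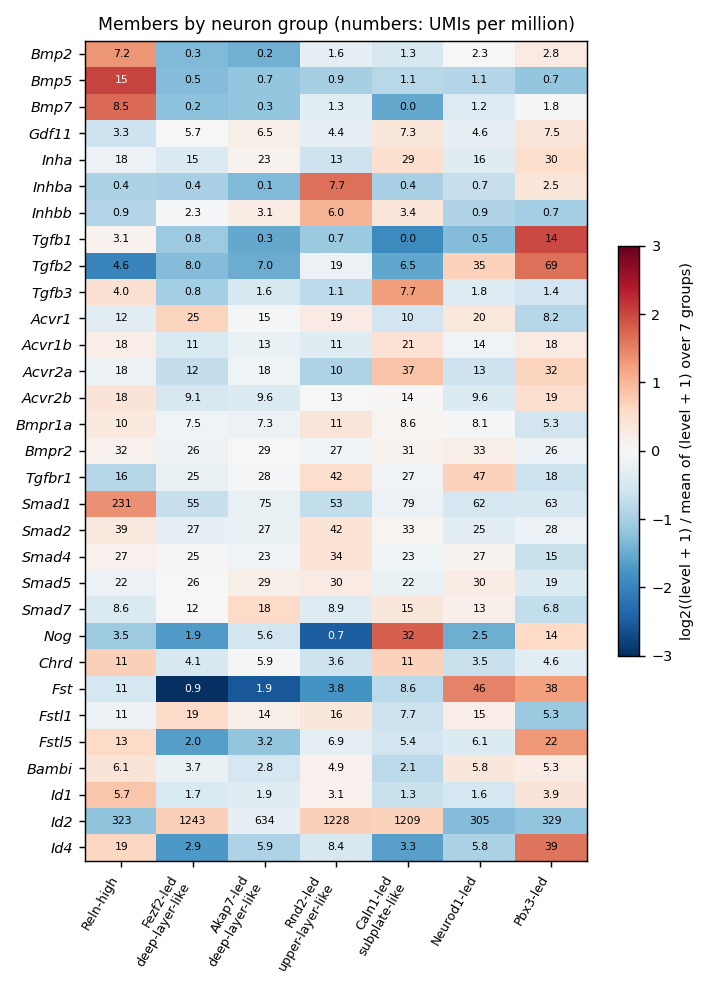
Level in CPM (numbers) of the 31 members that reached 5 CPM in at least 1 of 7 neuron groups, with Reln-high barcodes in the first column; colour is the log2 of level + 1 over its mean across the 7 groups. Bmp2, Bmp5, Bmp7 and Smad1 are highest in the first column, Tgfb2 (69.0) in Pbx3-led neurons and Nog (32.3) in subplate-like neurons.

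The lower Tgfb2 of Reln-high barcodes lay farthest from the Pbx3-led neurons at 69.0 CPM and the Neurod1-led neurons at 34.7 CPM, whereas the deep-layer-like and subplate-like clusters lay between 6.51 and 7.99 CPM. Tgfb1 was at 13.9 CPM in Pbx3-led neurons, but 13 of its 39 UMIs there came from 1 barcode. Nog was at 32.3 CPM in subplate-like neurons and 0.729 CPM in upper-layer-like neurons, which placed Reln-high barcodes at 3.46 CPM within the range of the other clusters. Chrd was at 10.5 CPM in subplate-like neurons, next to 10.7 CPM in Reln-high barcodes.

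Id2 was high in the Fezf2-led (1243 CPM), upper-layer-like (1228 CPM) and subplate-like (1209 CPM) neurons and lower in Akap7-led neurons (634.2 CPM). Its 323.2 CPM in Reln-high barcodes lay beside 305.0 CPM in Neurod1-led and 329.1 CPM in Pbx3-led neurons, so low Id2 was shared by 3 of the 7 groups. Id4 was at 39.1 CPM in Pbx3-led neurons, above its 19.3 CPM in Reln-high barcodes, and Fstl5 at 22.4 CPM there against 13.4 CPM. Fst was at 46.3 CPM in Neurod1-led and 38.4 CPM in Pbx3-led neurons and at 0.854 CPM in Fezf2-led neurons. Inhba (7.65 CPM) and Inhbb (6.01 CPM) were highest in upper-layer-like neurons, where Tgfbr1 (42.5 CPM) was close to its 47.3 CPM in Neurod1-led neurons. Acvr2a was at 37.3 CPM in subplate-like and 32.4 CPM in Pbx3-led neurons.

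Rspo3, an R-spondin that amplifies Wnt signalling, was graded within the Reln-high barcodes into 157 barcodes of the lowest, 157 of the middle and 156 of the top grade. Its level was 7.18, 81.3 and 379.9 CPM, and 132 barcodes of the lowest grade had no Rspo3 UMI. The middle grade was the deepest (median 28395 UMIs, against 21931 in the lowest and 17838.5 in the top). The outer grades are compared, and they also differed in depth. Of their barcodes, 37.6% in the lowest and 22.4% in the top grade exceeded 25000 UMIs. Of the 25 members past 5 CPM in this comparison, Bmp2 and Id4 were at least 2-fold higher in the top grade. Tgfb2 and Fst were at least 2-fold lower. Of all 9638 genes past that level, 1.25% were at least 2-fold higher and 1.34% at least 2-fold lower. Bmp2 and Tgfb2 were below 5 CPM in the grade where they were lower and passed the minimum only through the other. The CR-like cluster held 127 of the 157 barcodes of the lowest and 143 of the 156 of the top grade, and Tgfb2 and Fst were highest in the Neurod1-led and Pbx3-led neurons described above. The part of this cluster make-up in the lower calls was not tested, and ratios within the CR-like cluster are given below. The median log2 ratio was 0.00 over members and over all genes.

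Bmp2 was at 18.0 CPM (59 UMIs) in the top grade, 3.13 CPM in the middle and 3.19 CPM (12 UMIs) in the lowest, 5.65-fold higher in the top than in the lowest grade (3.01 to 11.6). At 12000 UMIs it was found in 19.3% (13.2% to 26.7%), 5.19% (2.27% to 9.98%) and 2.72% (0.746% to 6.82%) of barcodes in the same order (21.8%, 7.01% and 6.37% unthinned). Id4 was at 36.1 CPM (118 UMIs), 12.7 CPM and 13.6 CPM (51 UMIs), 2.66-fold higher in the top than in the lowest grade (1.90 to 3.77), and was found in 29.7%, 13.6% and 12.2% of thinned barcodes (44.2%, 28.7% and 25.5% unthinned). For both genes the middle and lowest grades did not differ beyond counting error. Among thinned Reln-high barcodes, Id4 was found in 37.5% (22.7% to 54.2%) of the 40 with a Bmp2 UMI and 16.5% (13.0% to 20.5%) of the 406 without, a pair chosen after its values were seen. Of the 40 with Bmp2, 28 lay in the top grade, so these shares are not separate from the grade.

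Bmp5 and Bmp7 did not follow Bmp2. Bmp5 was at 13.8, 12.1 and 18.4 CPM from the top to the lowest grade, a log2 ratio of top over lowest of -0.42 (-0.99 to 0.15), and Bmp7 at 8.57, 8.42 and 8.51 CPM, a ratio of 0.01 (-0.78 to 0.79). Smad1 was at 293.7, 203.8 and 215.0 CPM, a ratio of 0.45 (0.31 to 0.59), and Id2 at 259.4, 380.7 and 300.7 CPM, a ratio of -0.21 (-0.34 to -0.08). Id1 was at 4.59, 4.31 and 8.51 CPM. No receptor and no Smad reached 2-fold among the 12 past 5 CPM.

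The 2 lower calls rested on few UMIs. Tgfb2 was at 2.45 CPM (8 UMIs) in the top and 7.98 CPM (30 UMIs) in the lowest grade, a log2 ratio of -1.71 (-3.04 to -0.55). The ratio was -0.68 without barcodes above 25000 UMIs, short of 2-fold. It was -1.95 without barcodes with Xist and Y-linked RNA, -1.64 with no doublet removal and -2.04 within the CR-like cluster. There the ratio stayed past 2-fold, but the mean level fell below 5 CPM. Under each of these settings Tgfb2 was no longer called. Fst was at 5.51 CPM (18 UMIs) and 21.8 CPM (82 UMIs), a ratio of -1.99 (-2.81 to -1.24), but 1 barcode of the lowest grade held 43 of the 82 UMIs. Without the barcode with the highest count of each gene, the ratio of Fst was -0.92 and neither gene was called, whereas within the CR-like cluster it was -1.91. Other markers differed between the same grades: from the lowest to the top grade the CR markers summed to 1493 and 1901 CPM, the radial glia markers to 193.2 and 331.6 CPM, the meningeal markers to 18.1 and 37.0 CPM, and the choroid plexus or hem markers to 8.78 and 20.2 CPM. Their part in the values of Bmp2 and Id4 was not tested.

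**Figure D4:**
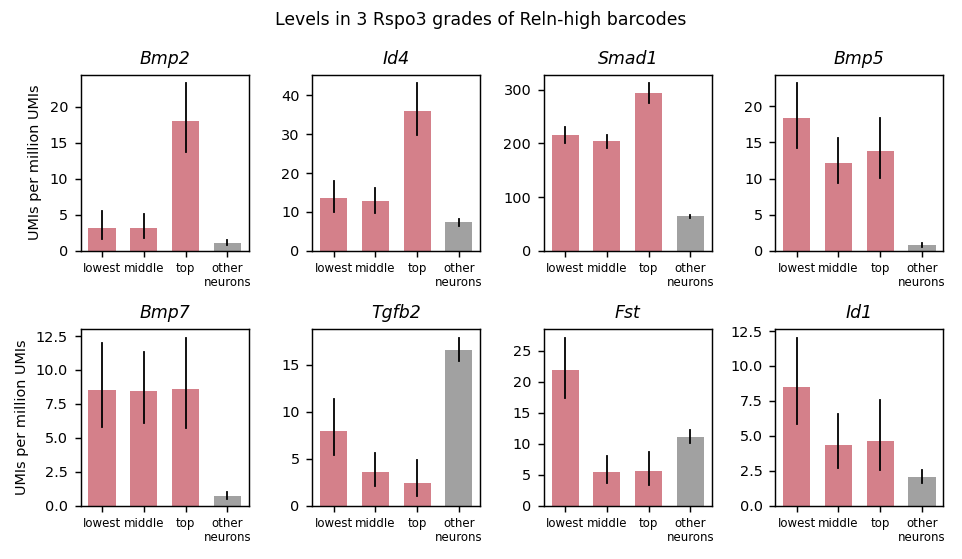
Level in CPM (bars from 0, black lines for exact 95% counting intervals) of 8 members in the lowest, middle and top Rspo3 grades of Reln-high barcodes (red) and in other neurons (grey); each panel has its own axis. Bmp2 (3.19, 3.13 and 18.0) and Id4 (13.6, 12.7 and 36.1) are highest in the top grade, while Bmp7 stays between 8.42 and 8.57.

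The wider pathway was taken from a list of 56 further ligands, receptors, antagonists, modulators and targets. In the Reln comparison 18 of them passed 5 CPM, of which 5 were at least 2-fold higher and 2 at least 2-fold lower in Reln-high barcodes (7.0% and 4.33% of all genes), 33 were below 5 CPM and 5 had no UMI. Gdf5, a BMP-type ligand, was at 63.2 CPM (767 UMIs) against 1.73 CPM (73 UMIs), a log2 ratio of 5.19 (4.85 to 5.56). Rgmb, a co-receptor for BMPs, was at 65.2 against 11.1 CPM, a ratio of 2.55 (2.38 to 2.72), and Twsg1, a chordin partner, at 52.2 against 14.8 CPM, a ratio of 1.82 (1.66 to 1.98). Pmepa1, a target and inhibitor of TGF-beta signalling, was at 27.4 against 9.01 CPM, and Tgfb1i1, a focal adhesion coactivator, was at 12.4 against 6.01 CPM. Bmp3 was at 2.80 against 8.23 CPM and the antagonist Nbl1 at 4.20 against 11.3 CPM. Gdf5, Bmp3 and Nbl1 passed the minimum only through the group where they were higher.

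**Figure D5:**
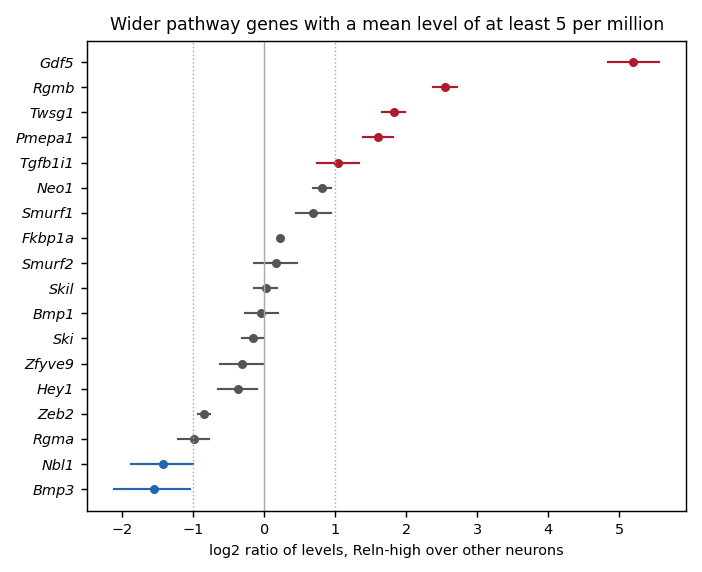
Log2 ratio of levels, Reln-high barcodes over other neurons, of the 18 wider pathway genes with a mean of at least 5 CPM, with exact 95% counting intervals; dotted lines mark 2-fold either way. Gdf5 lies farthest to the right at 5.19, and Nbl1 (-1.42) and Bmp3 (-1.55) lie beyond the line on the left.

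Across the Rspo3 grades 18 genes of the wider list passed 5 CPM, of which 2 were at least 2-fold higher in the top grade and 0 at least 2-fold lower (1.25% and 1.34% of all genes). The BMP-binding protein gene Bmper was at 9.48 CPM in the top and 4.26 CPM in the lowest grade (31 and 16 UMIs), and Tgif1, a corepressor of Smad2 and Smad3, at 10.7 and 4.26 CPM (35 and 16 UMIs). Both passed the minimum only through the top grade. Gdf5 was at 70.7 and 64.1 CPM, a ratio of 0.14 (-0.13 to 0.41), close to even like Bmp7.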

How the data were processed

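The labels give 8 samples of Ebf2-EGFP+ cells, all from 1 matrix of UMI counts deposited by the authors, so no sample-level comparison could be made and the replicate numbers were not used. Per the submitters' processing notes the authors used Cell Ranger 2.0.0, Seurat 2.0 and mm10. How reads over overlapping genes were assigned is not given in the sources used here, and the members whose exons overlap another gene on the same strand are Tgfbr3 and Smad5. No per-sample column was left unused, and the symbols Ltbp4 and Tgfb1i1 each name more than 1 row, of which the row with more UMIs was taken.

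A barcode needed 1000 genes or more and no more than 10% mitochondrial UMIs, which 0 failed, and the 2.3% with the highest Scrublet scores (scanpy 1.11.5) were removed, since the automatic threshold called 1 barcode. K-means (scikit-learn 1.9.0, 8 clusters, 50 starts) was run on 20 principal components of 2000 variable genes, without members or wider pathway genes. Clusters were named "-like" from fixed marker lists where their leading genes did not go against the name. These names are rebuilt here and may differ from those of the study. Other neurons leave out 17 barcodes of a cycling cluster. The 15 marker lists, of 4 to 8 genes each, are described by summed level. Lists whose sums are not given above were also computed, in Reln-high barcodes against other neurons. They gave 794.7 against 1468 CPM for deep-layer, 267.3 against 183.2 for upper-layer and 467.9 against 178.9 for subplate markers. The sums were 141.2 against 199.4 for newborn neuron and 3.38 against 4.90 for interneuron markers. Erythroid markers gave 35.8 against 427.5 and oligodendrocyte precursor markers 0.907 against 1.56 CPM. Erythroid UMIs of the other neurons came largely from 1 barcode with 16156 of 18072.

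A level is a gene's UMIs over all UMIs of the group, per 1000000, with an exact Poisson interval. Ratios have an exact conditional binomial interval and shares an exact Clopper-Pearson interval (scipy 1.17.1). A member was called at 2-fold or more with a mean of the 2 levels of at least 5 CPM. Barcodes are not replicates, so no p-value was computed. All 41 members are named. The genes of the wider list called in a comparison are named and the others counted, and 1 gene was left out of that list and is not reported here. The members and lists were chosen with earlier results of these data known. The code was tested on simulated counts. Alternatives changed the filters, doublet removal, Reln and Rspo3 limits, depth, level minimum and the pooling of barcodes.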

Additional observations from a re-analysis of the deposited data

How the results depend on the processing

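No paired analysis was possible because barcodes of the 8 labelled samples cannot be told apart and nothing was tested. Depth limits the Rspo3 comparison, where the called members had 8 to 118 UMIs in a grade. Over the alternatives, 390 of 418 member ratios in the Reln comparison and 363 of 377 in the Rspo3 comparison stayed within their counting interval, and no called ratio reversed. The log2 ratio of Smad1 ran from 1.81 to 2.10, Bmp5 from 4.06 to 4.51, Id4 from 1.35 to 1.90, Id2 from -1.94 to -1.32 and Tgfb2 from -2.35 to -1.61. Across Rspo3 grades Bmp2 ran from 2.15 to 3.31, Id4 from 0.92 to 1.63, Tgfb2 from -2.08 to -0.68 and Fst from -2.43 to -0.92.

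With no minimum level, 10 members were higher and 9 lower in Reln-high barcodes, against 15.3% and 18.0% of 18765 genes. With a minimum of 20 CPM, 1 was higher (Smad1) and 1 lower (Id2), because fewer genes were compared. Of all 5989 genes past that minimum, 5.34% were higher and 3.44% lower. In the Rspo3 comparison, 5 were higher and 7 lower with no minimum, against 10.4% and 12.0% of 15826 genes. At 20 CPM 1 was higher (Id4) and 0 lower, against 0.623% and 0.492% of 6096 genes. A split at the median Rspo3 rank in place of the outer grades left 1 higher (Bmp2) and 1 lower (Fst), against 0.434% and 0.352% of 9668 genes. The lower count was 1, with Fst alone called, without barcodes above 25000 UMIs, with no doublet removal, at 12000 UMIs, with the mean of each barcode's own CPM, without barcodes with Xist and Y-linked RNA, and within the Cajal-Retzius-like cluster, the last chosen after seeing the data. Under these settings the share of all genes that were lower ran from 1.11% (no doublet removal) to 3.97% (without barcodes above 25000 UMIs). The lower count was also 1 (Id1) without the highest barcode of each gene, against 1.15% of all genes. The cause was not tested for the settings that keep all genes.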

Other observations

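A small cycling cluster of 17 barcodes, left out of the other neurons, had other members high, although 1 UMI weighs more in its 283417 UMIs, where 3 counts amount to 10.6 CPM. Id1 was at 98.8 CPM and Id3 at 81.2 CPM, but 19 of the 23 Id3 UMIs came from 1 barcode. Id2 was at 511.6 CPM, below the 902.3 CPM of the other neurons, and 1 barcode held 43 of its 145 UMIs. Fstl1 was at 49.4 CPM, Acvr2b and Bmpr1a at 38.8 CPM each and Id4 at 35.3 CPM. Smad1, at 56.5 CPM, was not above the 64.0 CPM of the other neurons. Bmp2 and Bmp5 had no UMI there.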
